A study of Rattus norvegicus with 2 samples.

Results

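The genes described here are the Hox genes of the 4 clusters and members of the Tbx, Pitx, Meis and Pbx families, transcription factors that tell embryonic cells where in the body they lie. They were chosen by a rule on gene names, with earlier results of these data known. It took every non-control probe whose gene name was Hoxa, Hoxb, Hoxc, Hoxd, Tbx, Pitx, Meis or Pbx followed by a digit. The endings _predicted or _mapped were removed first, and the brightest probe stood for each gene. This gave 43 genes on 52 probes, namely 24 Hox, 11 Tbx, 3 Pitx, 2 Meis and 3 Pbx genes, among 18346 named genes on the array. A gene counted as detected where its probe was well above background for at least 1 stage on both arrays, which held for 34 of the 43 members and for 14790 genes in all.

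The skin came from fetuses of Sprague Dawley rats, an outbred laboratory strain, at day 16.5 (labelled E16) or day 18.5 (labelled E19) of gestation. Skin RNA of 4 E16 samples was pooled, and so was that of 3 E19 samples. Both pools, neither of them treated, were hybridised together to 2 Agilent rat arrays with the dyes exchanged, E19 in Cy5 on the first and in Cy3 on the other. The labels name no body region, litter or sex, so a difference in the region sampled cannot be told apart from a difference of stage.

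Hox genes lie in 4 clusters, and within a cluster they are numbered from paralog group 1, used towards the head, to group 13, used towards the tail and the limb ends. Hox proteins bind DNA weakly alone and pair with Pbx and Meis proteins, homeodomain cofactors that sharpen their choice of sites. T-box factors (Tbx) and the paired-like homeodomain factors Pitx add limb identity and, in skin, dorsal-ventral pattern, and dermal fibroblasts are known to keep a Hox code of their body site.

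With 1 RNA pool per stage there was no test of the stage difference, and the 2 arrays count as 1 replicate. Each gene is given by the log2 ratio of the E19 to the E16 pool, averaged over both arrays and followed by ± their SD, a technical spread. Negative values thus mean higher in E16. Calling a gene higher at 1 stage required a difference of 2-fold or more in that direction on each array. Of all detected genes, 3.75% were called higher in E16 and 4.14% higher in E19. Just 3 genes reached 2-fold towards the same dye on each array. The share of spots well above background ranged from 71.5% to 74.3% by channel, and the small number of arrays limits the precision. A lower ratio in such tissue RNA cannot tell fewer cells that make a transcript from less transcript per cell.

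Most detected Hox genes of clusters A, B and C were lower at E19 than at E16, while those of cluster D were divided. Of 18 detected Hox genes, 16 had ratios below 0 on both arrays, 1 lay above 0 on both and 1 was split, whereas 36.6% of all detected genes lay below 0 on both. Their median log2 ratio was -0.82, against 0.02 over all detected genes. The 2-fold rule was passed by 5 of the 18 (27.8%), each higher in E16, beside the 3.75% of all genes, and by 0 in the other direction. The 5 were Hoxa9, Hoxa5, Hoxc6, Hoxb8 and Hoxd1. Of the 18, Hoxb3, Hoxb8, Hoxb9 and Hoxc10 were counted as detected through E16 alone, so the sign of their ratios was largely set by the detection rule. Among the other 14, which were well above background in each pool on at least 1 array, 12 lay below 0 on both arrays, 4 were called higher in E16 and the median was -0.81. For all genes chosen that way, 35.9% lay below 0 on both arrays and 3.51% were called higher in E16. Among the other families, only the cofactor gene Meis2 passed, so that 6 of 34 detected members (17.6%) were called. Centred on the spike-in RNAs, which lowers every log2 ratio by 0.22, 11 members were called, 9 of them Hox genes, and the split over all genes was 390 higher in E19 and 809 in E16, against 613 and 554.

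**Figure D1:**
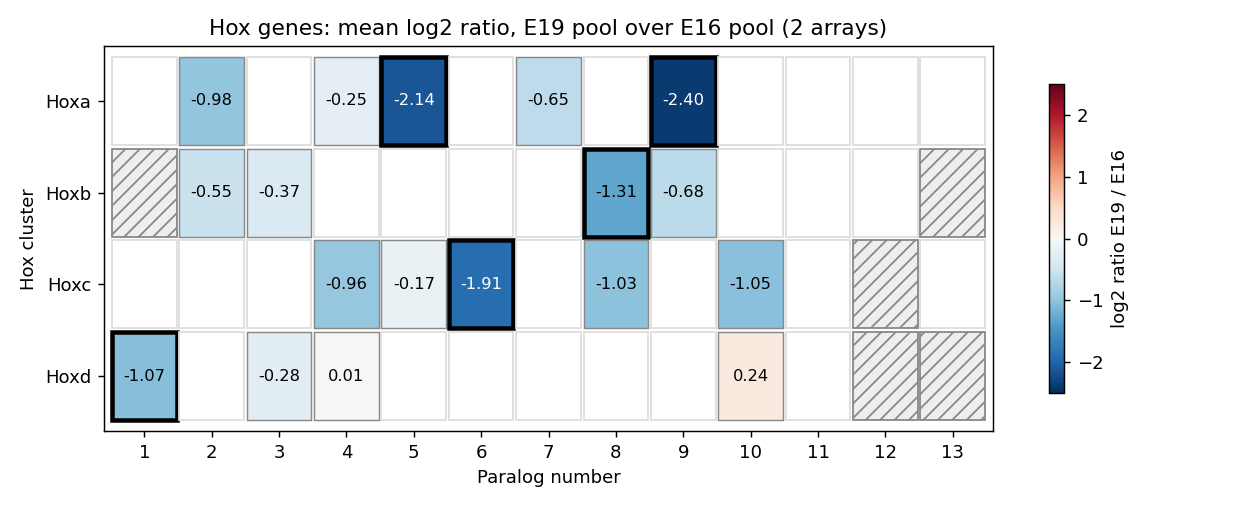
Mean log2 ratio of the E19 over the E16 pool for each Hox gene, by cluster (rows) and paralog number (columns), from 2 arrays. Blue is higher in E16 and red higher in E19, thick frames mark genes at least 2-fold higher in E16 on both arrays, hatched cells are genes not detected, and white cells show no value. The darkest cells are Hoxa9 (-2.40), Hoxa5 (-2.14) and Hoxc6 (-1.91). Hoxd10 (0.24) and Hoxd4 (0.01) are the detected genes not below 0, and centred on spike-in RNAs Hoxd4 turns to -0.20.

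The stretches before the start of 4 Hox genes are printed because they pair a called gene with a gene of the same cluster whose ratio was closer to 0, Hoxa9 with Hoxa4 and Hoxd1 with Hoxd4. Each is the 250 bases before the annotated start, read 5′ to 3′ on the gene's strand, from RefSeq on the GRCr8 assembly, which held such a sequence for 24 of the 43 members. Hoxa9 lies at chr4:82657049-82657298 and Hoxa4 at chr4:82622303-82622552, both on the minus strand. Hoxd1 lies at chr3:80072791-80073040 and Hoxd4 at chr3:80021636-80021885, both on the plus strand. Capitals mark matches on either strand to TATAAA (the TATA box), CCAAT (the CCAAT box), TGACAG (a Meis site), TGATNNAT (a Pbx-Hox site) and AGGTCA (a retinoic acid receptor hexamer).
Hoxa9: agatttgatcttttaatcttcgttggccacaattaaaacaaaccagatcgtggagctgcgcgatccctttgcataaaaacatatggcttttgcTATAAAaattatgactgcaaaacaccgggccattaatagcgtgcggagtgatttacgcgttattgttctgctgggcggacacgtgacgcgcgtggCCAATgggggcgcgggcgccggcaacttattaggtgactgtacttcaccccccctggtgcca
Hoxa4: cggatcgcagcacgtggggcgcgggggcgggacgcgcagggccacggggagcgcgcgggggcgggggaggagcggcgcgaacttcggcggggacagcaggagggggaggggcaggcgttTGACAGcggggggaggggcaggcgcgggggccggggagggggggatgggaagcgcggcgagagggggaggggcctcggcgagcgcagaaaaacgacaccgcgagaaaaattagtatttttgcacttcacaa
Hoxd1: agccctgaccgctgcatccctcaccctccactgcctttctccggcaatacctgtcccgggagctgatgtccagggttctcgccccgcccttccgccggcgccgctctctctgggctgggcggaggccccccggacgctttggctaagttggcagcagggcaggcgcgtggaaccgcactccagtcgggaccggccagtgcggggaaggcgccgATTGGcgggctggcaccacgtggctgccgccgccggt
Hoxd4: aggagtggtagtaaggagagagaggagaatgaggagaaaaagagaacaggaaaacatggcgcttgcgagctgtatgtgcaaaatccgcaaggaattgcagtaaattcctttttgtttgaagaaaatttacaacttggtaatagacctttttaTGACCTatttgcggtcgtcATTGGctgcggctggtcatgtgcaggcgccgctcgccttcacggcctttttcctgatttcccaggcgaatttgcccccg
Hoxa9 holds a TATA box, with its first base 157 bases before the start, and a CCAAT box at 62. Hoxd1 holds a CCAAT box at 37, whereas Hoxd4 holds one at 79 and a retinoic acid receptor hexamer at 98. Hoxa4 holds only a Meis site, at 131. Among 12 Hox members with such a sequence, 8 (66.7%) held CCAAT, against 34.0% of 33469 promoters of that length in the table. The TATA box was held by 2 of the 12 (16.7% against 12.9%), the Meis site by 2 (16.7% against 15.8%), the Pbx-Hox site by 2 (16.7% against 7.96%) and the retinoic acid receptor hexamer by 3 (25% against 14.1%). The 12 Hox stretches had a median of 16 CG dinucleotides, against 5 over all. These are matches of letters, and the 12 members include Hox genes called and not called.

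In cluster A, the 5 detected genes had a median of -0.98, and those with the largest and the smallest ratio differed widely. Hoxa9, a gene of the posterior body axis also known from blood progenitors, had normalised log2 intensities of 11.83 and 11.55 in the E16 pool and 9.35 and 9.22 in the E19 pool on the arrays with E19 in Cy5 and in Cy3. Its E16 levels lay above its E19 levels on both arrays. The log2 ratio was -2.40 ± 0.11, or 5.28-fold higher in E16. Hoxa5, which patterns the neck and upper trunk and is needed for lung development, had levels of 14.72 and 14.33 in E16 and of 12.56 and 12.21 in E19. Its log2 ratio was -2.14 ± 0.03, or 4.42-fold.

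The dimmer second probes of both genes went the same way and also passed the rule, at -1.64 ± 0.02 for Hoxa9 and -1.67 ± 0.01 for Hoxa5. Hoxa2, which gives the second pharyngeal arch its identity, was at -1.13 and -0.82 on the 2 arrays (-0.98 ± 0.22) and so missed the rule on the array with E19 in Cy3. Hoxa7, a gene of the mid trunk, was at -0.65 ± 0.04. Hoxa4 is the neighbour of Hoxa5 in the RefSeq gene order, and its ratio was -0.25 ± 0.03, with levels of 13.20 and 13.15 in E16 against 12.93 and 12.93 in E19. Within these 2 arrays Hoxa4 was thus slightly lower at E19 and Hoxa5 much lower.

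In cluster C, all 5 detected genes lay below 0 on both arrays, with a median of -1.03. Hoxc6, a gene of the thoracic region, had levels of 10.69 and 10.76 in E16 and of 8.86 and 8.78 in E19, a log2 ratio of -1.91 ± 0.11 and 3.76-fold higher in E16. Its 2 probes were designed on different transcript records and disagreed in size. The dimmer probe was at -0.69 ± 0.02, short of 2-fold on both arrays, and the mean over both probes was -1.30.

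Hoxc8, which patterns the thorax and the motor neurons of the forelimb level, was at -1.13 and -0.93 on the 2 arrays (-1.03 ± 0.14). Hoxc4, a gene of the neck region, was at -0.98 and -0.95 (-0.96 ± 0.03). Both lay close to the limit and were not called. Hoxc5 lies between Hoxc4 and Hoxc6 in the RefSeq gene order, and at -0.17 ± 0.01 it was nearest to 0 among the 5 detected members of its cluster. Hoxc10, a gene of the lumbar region and hindlimb, was at -1.12 and -0.99 (-1.05 ± 0.09), so that it missed the rule on 1 array.

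Cluster B had 4 detected members with a median of -0.61, or -1.65 with the scanner program's processed signals, and 3 of them were well above background only in E16. Hoxb8, which acts in the trunk and in blood-derived cells, had levels of 7.82 and 8.09 in E16 and of 6.55 and 6.74 in E19. In E19 Hoxb8 was not well above background on either array, and it measured 2.48-fold higher in E16 (log2 ratio -1.31 ± 0.06). Hoxb9, Hoxb3 and Hoxc10 were likewise not well above background in E19, and measured 1.60-fold, 1.29-fold and 2.08-fold higher in E16. A floor, the lowest signal of any probe well above background on that array, did not change these folds. Their E19 signals were still not well above background, so the size of these folds is uncertain. Some settings gave smaller differences, with Hoxb3 at -0.28 under median centring and Hoxb9 at -0.53 on the array with E19 in Cy3 alone. Larger ones are given below. The second Hoxb3 probe, not detected, was at -0.12 ± 0.08. Hoxb2, which patterns the hindbrain, was measured in both pools and was at -0.55 ± 0.04.

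These 4 dim genes were also those whose ratios depended most on the background step. With the scanner program's own processed signals, Hoxb8 was at -3.75, Hoxc10 at -2.87, Hoxb9 at -1.92 and Hoxb3 at -1.38. With a normexp offset of 0 in place of 50, Hoxb8 was at -2.17 and Hoxc10 at -1.83. Hoxc10, Hoxb9 and Hoxb3 passed the rule with the processed signals, as did Hoxc4, which gave 9 Hox genes called. Hoxa5 and Hoxa9, bright in both pools, kept values from -2.36 to -1.91 and from -2.62 to -2.02 over all settings run.

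**Figure D2:**
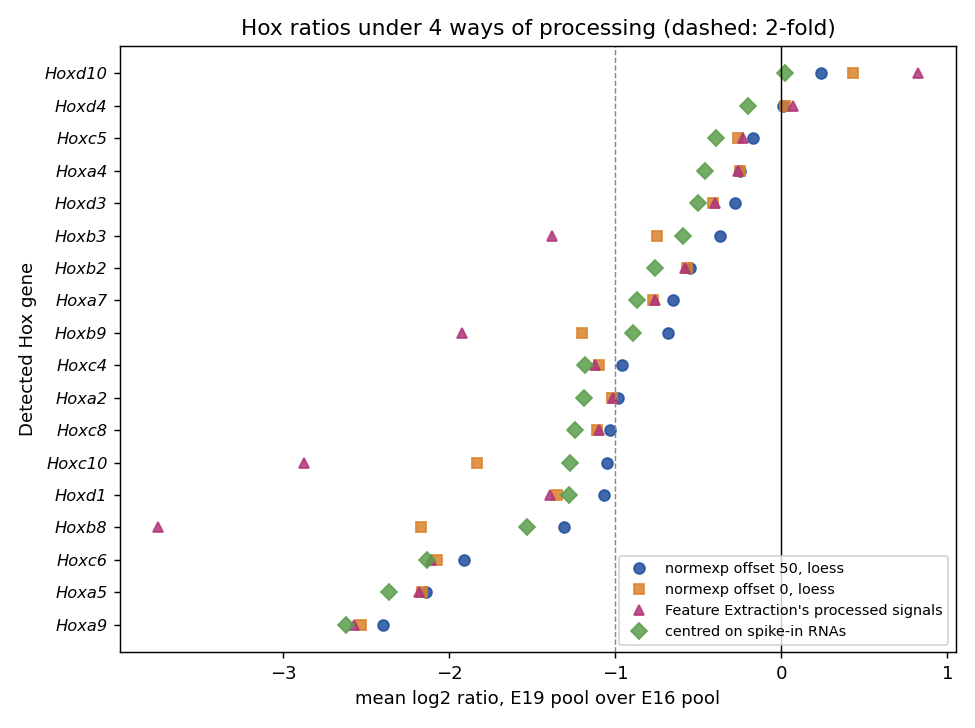
Mean log2 ratio of the E19 over the E16 pool for the 18 detected Hox genes under 4 ways of processing, with the dashed line at 2-fold higher in E16. Hoxb8, Hoxc10, Hoxb9 and Hoxb3 lie far to the left with Feature Extraction's processed signals (triangles), and Hoxd4 changes sign when the ratios are centred on spike-in RNAs (diamonds, -0.20).

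In cluster D the ratios of the 4 detected genes rose with the paralog number (Pearson's r = 0.83). The other clusters had r of -0.51 (A), -0.65 (B) and -0.18 (C), each over 4 or 5 genes. Hoxd1, known in mice from pain-sensing neurons, had levels of 8.76 and 8.64 in E16 and of 7.74 and 7.53 in E19, and its log2 ratio was -1.07 ± 0.07. Its second, dimmer probe was at -0.65 ± 0.13, so that Hoxd1 was not called when its probes were averaged. Hoxd3 was at -0.28 ± 0.09, Hoxd4, a gene of the neck region, at 0.01 ± 0.03, and Hoxd10, which acts in the lumbar region and limb, at 0.24 ± 0.22. Hoxd10 was well above background in E16 on 1 of 2 arrays. Centred on spike-in RNAs Hoxd4 was at -0.20 and Hoxd10 at 0.02.

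Across all 18 detected Hox genes, paralog number and log2 ratio were hardly related (Pearson's r = -0.18, Spearman's rho = -0.18), as a description over genes that share the same 2 pools. By paralog group, 5 anterior genes (groups 1 to 3) had a median of -0.55, 9 central genes (groups 4 to 8) of -0.96 and 4 posterior genes (groups 9 to 13) of -0.87. The order of these classes depended on the processing, since the posterior median was -2.25 with processed signals and 0.04 with undetected members included. Of the 4 posterior genes, 2 were not well above background in E19. Each class held at least 1 called gene, Hoxd1 in the anterior, Hoxa5, Hoxc6 and Hoxb8 in the central and Hoxa9 in the posterior class. Members of 1 paralog group, which are close relatives, differed in their ratios in some groups. In group 5, Hoxa5 was at -2.14 and Hoxc5 at -0.17. In group 4, Hoxc4 was at -0.96, Hoxa4 at -0.25 and Hoxd4 at 0.01. In group 2, Hoxa2 was at -0.98 and Hoxb2 at -0.55. The SD of the 2 arrays, at most 0.22 for a detected Hox gene, does not measure how far different probes differ. The 2 probes of Hoxc6 were at -1.91 and -0.69. That is further apart than Hoxc4 was from Hoxa4 or Hoxd4, and less far than Hoxa5 was from Hoxc5. In groups 3, 8, 9 and 10, 1 gene each (Hoxb3, Hoxb8, Hoxb9 and Hoxc10) was not well above background in E19, so its ratio was not ranked against its paralogs.

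Hox genes not detected included Hoxb1, which acts in the hindbrain, and Hoxb13, Hoxc12, Hoxd12 and Hoxd13, which act at the tail end, in the genital region and in the digits. These 5 were not well above background in either pool on either array, and their normalised log2 intensities averaged between 6.02 and 6.54 per pool. All but Hoxb1 belong to groups 12 and 13, and no member of those groups was detected. For these 5 no difference was detectable at this signal.

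Among the cofactor genes, Meis2 stood lower at E19. Its levels were 11.04 and 10.92 in E16 and 9.70 and 9.59 in E19, the log2 ratio was -1.33 on the first array and -1.34 on the other, and it was 2.52-fold higher in E16. Meis3 was at -0.36 ± 0.03. Pbx3 was at -0.94 and -1.13 (-1.04 ± 0.14) and missed the rule on the array with E19 in Cy5. Its 2 dimmer probes were at -0.65 ± 0.06 and -0.69 ± 0.36. Pbx2 was at -0.38 ± 0.03.

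T-box genes showed no shared direction. Of 8 detected, 2 lay below 0 on both arrays, 3 above 0 on both and 3 were split. The rule was passed by 0 of 8 in either direction, beside 3.75% (E16) and 4.14% (E19) of all detected genes. Their median was 0.01, and -0.21 when centred on spike-in RNAs. Tbx15, which in mice sets the boundary between dorsal and ventral coat, had levels of 12.24 and 12.33 in E16 and of 12.31 and 12.25 in E19. Its log2 ratio was -0.01 ± 0.10, so that the stages were not separated by more than the arrays. Tbx18, known from the precursors of the dermal papilla, was higher in E19 on both arrays with levels of 12.27 and 12.27 against 11.70 and 11.64. Its log2 ratio was 0.60 ± 0.04, its second probe read 0.47 ± 0.02, and centred on spike-in RNAs it was at 0.38.

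Tbx1, a gene of the pharyngeal arches, was at 0.53 ± 0.23, above 0 on both arrays. Tbx2, a transcriptional repressor that acts in limb and heart development, was at -0.66 ± 0.26. Tbx3, its sister gene and a regulator of mammary bud formation, was at -0.17 on the first array and 0.30 on the other. Of the limb pair, Tbx5 of the forelimb was slightly below 0 on both arrays (-0.16 ± 0.05), and at -0.36 with processed signals. Its second probe, not detected, was at 0.04 ± 0.06. Tbx4 of the hindlimb was at 0.16 and -0.15 on the 2 arrays (0.00 ± 0.22). Tbx19, which specifies a pituitary cell type, was at 0.02 ± 0.01. Tbx4, Tbx5 and Tbx19 had low signal in both pools, with average levels between 6.85 and 7.12, which limits their ratios. Tbx6 of the presomitic mesoderm, Tbx20 of the heart and Tbx21 of T helper cells were not detected, although Tbx6 was well above background in each pool on 1 array and Tbx21 in E19 on 1 array.

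All 3 Pitx genes lay slightly below 0 on both arrays. Pitx3, needed in the lens and in midbrain dopamine neurons, was at -0.33 ± 0.19, and Pitx1, which gives the hindlimb its identity, at -0.13 ± 0.07. None of the family was called.

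**Figure D3:**
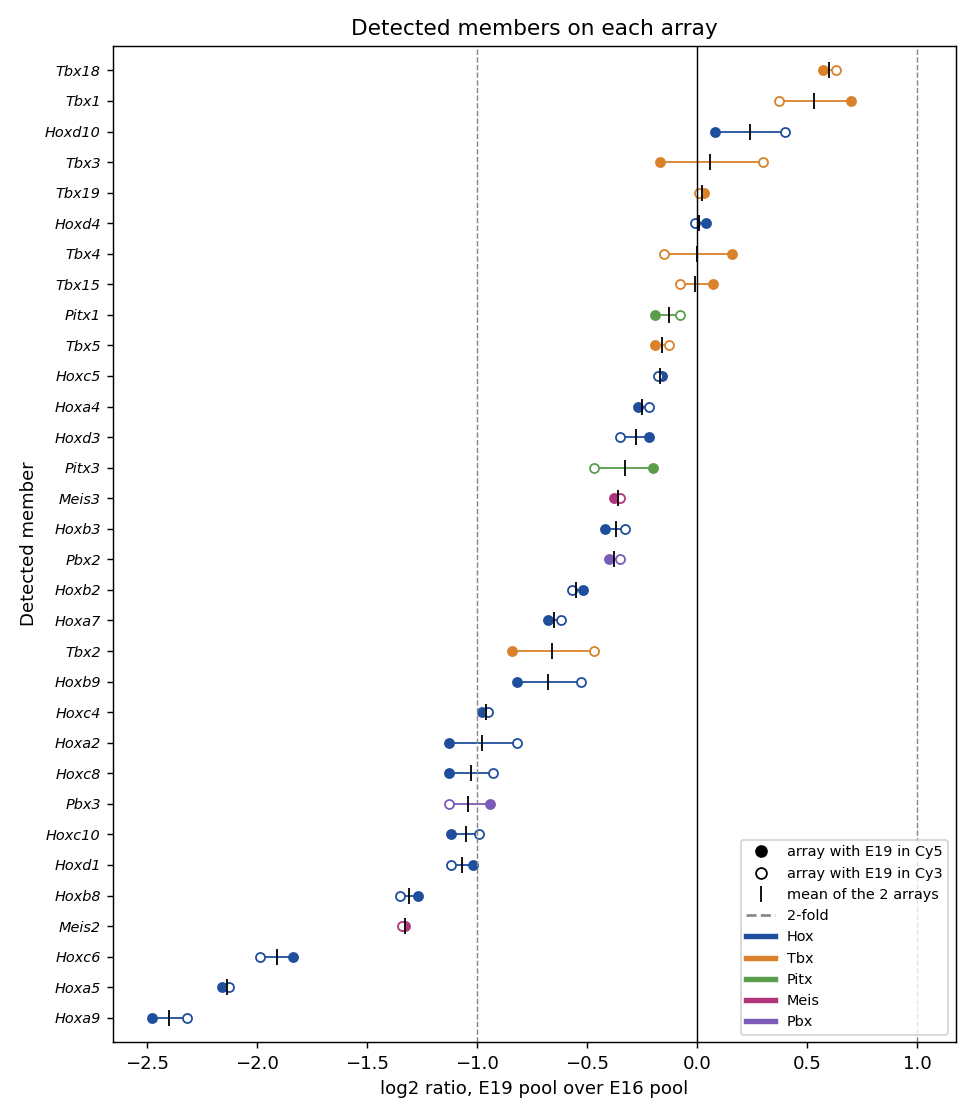
Log2 ratio of the E19 over the E16 pool for the detected members described here, ordered by their mean. Filled and open points are the 2 arrays, ticks are their mean and dashed lines mark 2-fold in either direction. The 6 genes at the bottom, from Hoxa9 (-2.40) to Hoxd1 (-1.07), are past the left line on both arrays, and no member reaches the right line. Centred on spike-in RNAs, every point would lie 0.22 lower, which puts Hoxd4, Tbx3, Tbx4 and Tbx19 below 0.

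**Figure D4:**
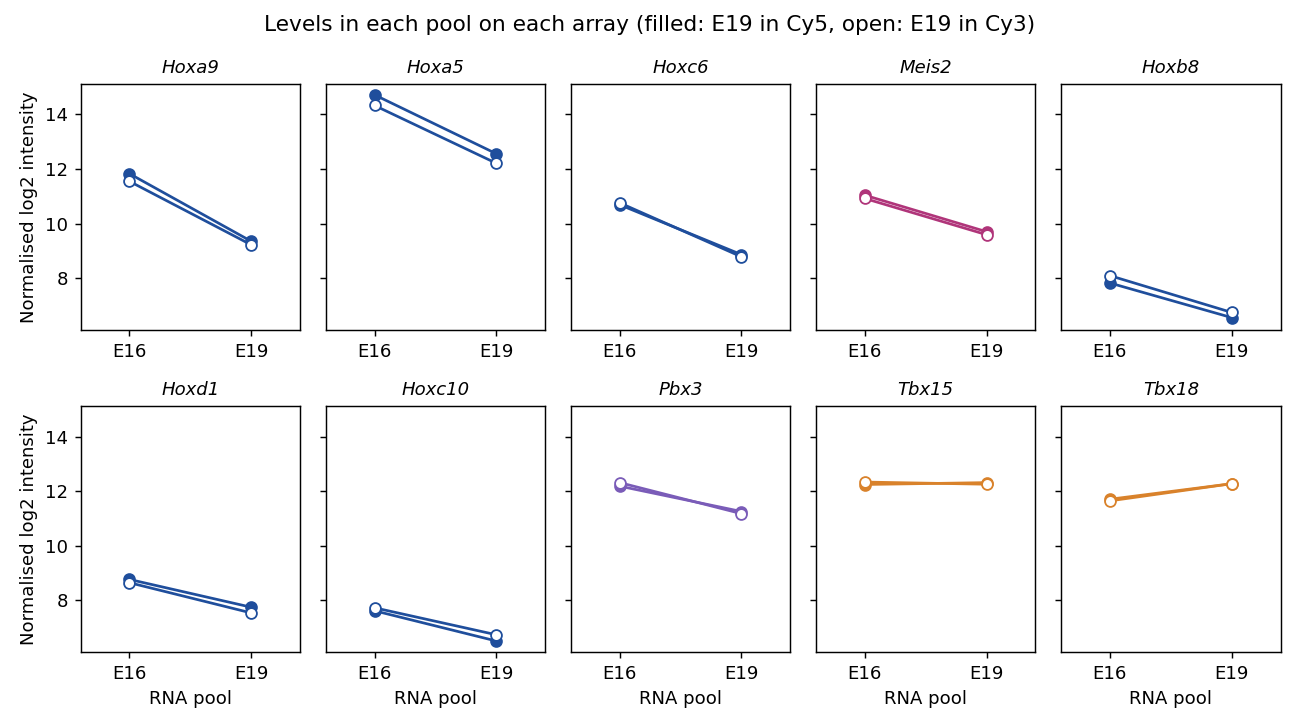
Normalised log2 intensity in the E16 and E19 pools on each array for the 6 called members and for Hoxc10, Pbx3, Tbx15 and Tbx18. Each line joins the pools of 1 array. The lines of the called members run downward from E16 to E19 on both arrays, those of Tbx15 are level, and those of Tbx18 run upward from 11.70 and 11.64 to 12.27.

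Regulators of Hox genes were also examined. Polycomb and trithorax proteins keep Hox genes silent or active through chromatin, and 0 of 23 detected genes of that list were called, with a median of -0.19. Of all detected genes, 3.75% were called higher in E16 and 4.14% higher in E19, so 0 calls in so short a list is no result about it. The 2 largest ratios were of the Polycomb genes Phc1 (-0.85 ± 0.09) and Rnf2 (-0.65 ± 0.03). Retinoic acid induces Hox genes, and a further list held genes of its supply, breakdown and reception, with Cdx genes and Gdf11. Of its 17 detected genes, 2 were higher in E16 (11.8%) and 1 higher in E19 (5.88%), with a median of -0.26. These shares rest on few genes. Aldh1a1, which makes retinoic acid, was at -1.51 ± 0.25, Gdf11, a signal that promotes posterior Hox expression, at -1.15 ± 0.09, and Cyp26b1, which degrades retinoic acid, at 1.41 ± 0.49.

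Other patterning factors of limb and trunk gave 4 of 32 detected genes higher in E16 (12.5%, beside 3.75% of all detected genes) and 0 higher in E19 (beside 4.14%), with a median of -0.10. They were Zfhx4 (-1.95 ± 0.01) and Zfhx3 (-1.66 ± 0.05), 2 large zinc finger homeodomain factors, Alx1 (-1.58 ± 0.08), a factor of craniofacial mesenchyme, and Msx1 (-1.36 ± 0.02), a target of BMP signals. Of 15 detected signalling genes of limb and genital outgrowth, 2 were higher in E16 (13.3%), and the median was 0.01. The 2 were the BMP inhibitor Grem1 (-1.82 ± 0.25) and the WNT enhancer Rspo2 (-1.11 ± 0.09). Rspo2 was well above background in E19 on 1 of 2 arrays.

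The pools carried markers of skin, and also of tissue under it. All 8 keratinocyte markers and all 8 dermal fibroblast markers were detected in both pools. Of these, 4 of 8 and 1 of 8 were called higher in E19 and none higher in E16, and the fibroblast genes Pdgfra (-0.31 ± 0.12) and Fbln1 (-0.60 ± 0.23) lay below 0. Their summed linear levels on the 2 arrays were 300318 and 758841 in E16 and 1320428 and 1410998 in E19 for keratinocytes, and 325730 and 502994 against 705717 and 595511 for fibroblasts. The E16 sums of the same pool thus differed widely between the arrays. The ratios of Krt14 (3.27 and 0.74) and Col3a1 (1.73 and 0.06) did so too, so the size of these differences is uncertain. All 6 adipocyte markers were called higher in E19, with sums of 5059 and 6919 against 92106 and 94673. The summed level of 14 cartilage markers was 57997 and 55817 in E16 and 16995 and 15344 in E19, and 10 of the 14 were called higher in E16. The summed level of 13 detected neuron markers, of 14, was 94393 and 89839 in E16 and 16249 and 15307 in E19, and 10 of the 13 were called higher in E16. For 8 detected skeletal muscle markers, of 9, it was 351685 and 344162 against 219060 and 126081, with 3 called higher in E16. Acta1 (0.39 ± 0.07) and Myf6 (0.24 ± 0.01) of muscle and Col9a1 (0.43 ± 0.02) of cartilage lay above 0 on both arrays. Matn3 of cartilage and Syt1 of neurons were not well above background in E19, while Isl2 of neurons and Pax7 of muscle were detected in neither. Of the kidney and urogenital markers 4 of 5 were detected and 0 called, and of the heart markers 1 of 3 was detected and was higher in E16. Cartilage, neurons and muscle use Hox genes as well, and the part of these markers in the Hox ratios was not tested.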

How the data were processed

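Per the file headers, Agilent's scanner program, Feature Extraction 9.5.1.1, wrote the spot intensity, and the deposited intensity columns used are the mean spot signal and the local median background of each channel. Per the file headers, the program also wrote processed signals and a log10 ratio of Cy5 over Cy3. The authors also deposited a table with, per sequence, 1 log10 ratio and 1 p-value from the array pair. How these were combined is not given in the sources used here. That ratio followed E19 over E16 (r = 0.92 over 14790 genes). The deposited p-values are not used.

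Background was corrected with normexp (offset 50) and ratios by loess within each array, controls at weight 0, in limma 3.58.1 and R 4.3.3. Levels were then scaled with Aquantile. Spots marked as outliers were left out. Ratios were turned to E19 over E16 and averaged over spots and arrays. Later steps used Python 3.11.15 with pandas 2.3.3. Other genes were named through RefSeq (GRCr8). Of 41012 probes, 10735 were named by accession, 5571 by symbol and 3729 by synonym, 3371 kept the array's name and 17606 had none. The steps were tested on simulated arrays.

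Named were the members, and from each further list the genes past the 2-fold rule, or the 2 largest ratios. Members, lists and paralog classes were chosen with earlier results of these data known. A few members enter the counts and medians but are not reported here by name.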

Additional observations from a re-analysis of the deposited data

Results flagged for a closer look

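RefSeq names 5 further detected genes as Hox genes that the array lists under other names, so the name rule left them out although they were well above background. Hoxa11 was at -1.46 ± 0.09 and Hoxb6 at -1.35 ± 0.02, and both were at least 2-fold higher in E16 on both arrays. Hoxa3 was at -0.57 ± 0.10, Hoxc11 at -0.09 ± 0.03 and Hoxb7 at 0.55 ± 0.06. Joining these 5 to the 18 detected Hox members was an alternative added after seeing the data. With them, 7 Hox genes were called higher in E16, 0 higher in E19, and the Hox median was -0.68. Of all detected genes, 3.75% were called higher in E16 and 4.14% higher in E19.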

How the results depend on the processing

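Hoxa5, Hoxa9, Hoxb8, Hoxc6 and Meis2 were at least 2-fold higher in E16 in each of 13 settings that kept that limit, the reported one included, and no called member changed sign. Hoxd1 passed in 11 of the 13, failing with median centring and with probes averaged. In the authors' deposited table only 1 combined ratio had to reach the limit, and on single arrays only that array's value. Of 374 member values under the alternatives, 122 moved beyond the SD of the array pair, and 5 members moved by over 1.5 times. Some settings could not change these figures. A single array's value cannot lie beyond that SD from the mean, and a called member passes on each array alone by the rule. No detected member had a saturated spot, adding undetected genes leaves the others as they are, and processed signals and log ratios gave equal values. The 13 settings are thus fewer separate checks.

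Members called higher in E16 numbered 6 and Hox genes 5. The scanner program's processed signals, or its log ratios, gave 10 and 9. Spike-in centring gave 11 and 9, and 12 and 11 passed by the authors' deposited table. That table holds 1 combined ratio per sequence, so 2-fold on each array was not required there. A limit of 1.5-fold gave 12 and 10, one of 3-fold 3 and 3. On single arrays, 7 to 9 members and 5 to 8 Hox genes were called, and the higher figures are of the array with E19 in Cy5 alone. The counts over all genes also rose there, from 554 higher in E16 and 613 higher in E19 to 679 and 739. The array with E19 in Cy3 alone gave 686 and 775. Over all genes, counts higher in E16 and E19 were 889 and 1014 with processed signals, 809 and 390 centred on spike-ins, 1000 and 1191 by the authors' deposited table, 1137 and 1413 when 1.5-fold sufficed, 230 and 178 when 3-fold was required, and 439 and 367 with median centring, where 192 genes went towards the same dye.

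Medians moved as follows. With processed signals or log ratios the Hox median was -1.11, cluster B -1.65, anterior -1.01, central -1.10, posterior -2.25 and Meis -0.90. The authors' deposited table gave -1.11, -1.60, -1.0, -1.10, -2.03 and -0.90 for the same groups. Normexp offset 0 gave Hox -1.06, Pitx -0.39, Meis -0.90, cluster B -0.97, cluster D -0.20, anterior -0.75, central -1.10 and posterior -1.51. No background subtraction gave Meis -0.87, cluster B -0.70, central -1.04 and posterior -1.08, and median centring gave Meis -0.88, Pbx -0.43 and anterior -0.59. Spike-in centring gave all members -0.59, Hox -1.04, Tbx -0.21, Pitx -0.55, Meis -1.07, Pbx -0.59, cluster B -0.83, cluster C -1.24, cluster D -0.35, anterior -0.76, central -1.18 and posterior -1.08. With undetected members included, the median of all members was -0.25, Hox -0.46, cluster B -0.46, cluster D 0.03, anterior -0.37 and posterior 0.04. With the genes under other array names, which was tried only once the data had been seen, the Hox median was -0.68. Keeping only genes well above background in each pool was also tried after the data had been seen. Medians were then -0.76 (4 anterior genes), -0.81 (8 central genes) and -1.08 (2 posterior genes). The 2 posterior genes, Hoxa9 (-2.40) and Hoxd10 (0.24), went in opposite directions. On single arrays Pitx lay between -0.25 and -0.20. Apart from the shift by spike-ins, the fold limits and the added undetected genes, which act by construction, the cause of these moves was not tested. Signal near background limits Hoxb3, Hoxb8, Hoxb9 and Hoxc10.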
